A study of Mus musculus with 6 samples.

Results

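The transcripts of the immunoglobulin loci were followed in gastrocnemius muscle, at the level of the single constant gene and the single variable segment. Of 49315 genes in the count table, 361 had the name of an immunoglobulin constant gene or variable segment, and 82 of these were chosen by their total of at least 20 counts over all 6 libraries. The 82 genes were 8 of 8 heavy-chain constant genes, 4 of 5 light-chain constant genes, 26 of 185 heavy-chain variable segments (Ighv), 43 of 160 kappa variable segments (Igkv) and 1 of 3 lambda variable segments (Iglv1). Of the rows not kept, 189 had no count in any library and 90 had 1 to 19 counts. Ighv3-1 and Ighv1-22 entered at exactly 20 counts, and 3 rows, Ighv9-3 and Ighv4-1 among them, stayed out at 18. The members held 69514 counts and the rows below the minimum 440.

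The muscles came from male C57BL6J mice, which received adeno-associated virus (serotype AAV9) when 5 months old, and were taken 5 months after that. AAV9-HSA-CAAHR carried a constitutively active form of AHR, the aryl hydrocarbon receptor, whose activity no longer needs a ligand, and AAV9-HSA-GFP carried green fluorescent protein. Both transgenes were driven by the human skeletal actin promoter, which is active in muscle fibres and not in lymphocytes, so the cells that transcribe immunoglobulin genes were not those in which the transgene was meant to be expressed. There were 3 libraries per group, AAV9-HSA-CAAHR replicates 31, 34 and 36 and AAV9-HSA-GFP replicates 42, 43 and 46. Both groups had received virus and uninjected muscle was not analysed here, so in these libraries a lower level in AAV9-HSA-CAAHR muscles and a higher level in AAV9-HSA-GFP muscles cannot be told apart. By quantitative PCR of selected immune genes, the authors found no decrease in AAV9-HSA-CAAHR muscles relative to uninfected mice. They attribute the difference in those genes to an immune response to AAV9-HSA-GFP. Whether immunoglobulin genes were among them was not examined here.

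Library totals were between 43432994 and 58825752 counts. Cyp1a1, an AHR target that encodes a monooxygenase, ranged over 1230 to 1680 CPM in AAV9-HSA-CAAHR muscles and 5.85 to 7.74 CPM in AAV9-HSA-GFP muscles, where CPM is the count relative to the library total, scaled with edgeR's TMM factors. Ahr itself was at 9.97 to 22.8 CPM against 1.87 to 2.55 CPM. Markers of skeletal muscle were abundant in every library, with a sum over 13 genes of 150000 to 187000 CPM in AAV9-HSA-CAAHR muscles and 222000 to 225000 CPM in AAV9-HSA-GFP muscles, and 4 of them (Acta1, Ckm, Tnnt3 and Tnni2) passed the test as lower, though the call of Acta1 was lost without AAV9-HSA-CAAHR replicate 36 or AAV9-HSA-GFP replicate 46, and those of the other 3 without any library but AAV9-HSA-CAAHR replicate 34. Other muscle genes had positive log2 fold changes that did not pass in edgeR, such as Myh7, the slow myosin heavy chain, at 3.44 ± 0.78 (SE, adjusted p = 0.0691). By DESeq2, 6 of the 13 muscle genes were called lower and 1 higher, where 7.04% of all tested genes were called lower. AAV9-HSA-GFP replicate 43 stood apart for the genes described here: it held 34105 of the members' 69514 counts and had the highest level of 61 of the 82 members. Without it, 40 of the 82 would have reached the minimum of 20 counts.

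An antibody is built of heavy and light chains. Each B cell joins a heavy-chain variable segment to short D and J segments and expresses it with a constant gene, and does the same, without a D segment, for a kappa or a lambda light chain. A B cell first uses the constant gene Ighm, and class switching can later join the same variable region to an Ighg, Ighe or Igha constant gene. Plasma cells, the antibody-secreting descendants of B cells, hold very large amounts of these transcripts, so a small number of such cells can be seen in the RNA of a whole tissue. Cells that descend from the same B cell share their variable segments. In RNA of whole muscle, fewer cells of a type and less RNA per cell cannot be told apart.

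The heavy-chain members lay on mouse chromosome 12 of the GRCm38 build, with the constant genes between 113254830 and 113422730 and the variable members between 113716670 and 115953005, on the minus strand. Igkc and the Igkv members were on chromosome 6, between 67555497 and 70726966, and the lambda members on chromosome 16, between 19061618 and 19200351. The following lines give the last 60 bases of the variable exon of 6 segments that led their locus in an AAV9-HSA-GFP library, from the transcripts of GENCODE release 21 for mouse. The capitals mark the codons for tyrosine, tyrosine or phenylalanine, and cysteine that close the conserved framework, after which each B cell has its own junction.
Ighv1-53: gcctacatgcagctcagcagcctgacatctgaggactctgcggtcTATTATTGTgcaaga
Ighv1-82: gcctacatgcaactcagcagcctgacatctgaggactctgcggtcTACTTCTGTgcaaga
Ighv8-12: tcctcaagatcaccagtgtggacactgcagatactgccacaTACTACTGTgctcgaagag
Igkv13-84: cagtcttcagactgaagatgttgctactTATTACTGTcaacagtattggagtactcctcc
Igkv3-2: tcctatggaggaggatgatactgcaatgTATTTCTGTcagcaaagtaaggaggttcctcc
Iglv1: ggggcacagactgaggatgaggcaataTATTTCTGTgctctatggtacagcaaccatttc
These segments were at chr12:115158403-115158462 (Ighv1-53), chr12:115952538-115952597 (Ighv1-82), chr12:115647945-115648004 (Ighv8-12), chr6:68940008-68940067 (Igkv13-84), chr6:70699008-70699067 (Igkv3-2) and chr16:19085017-19085076 (Iglv1). The kappa segments lay on the plus strand and the others on the minus strand. Ighv1-53 and Ighv1-82, of the same family, were 88.9% identical over their variable exons, and Ighv1-53 and Ighv8-12 were 51.6% identical.

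The kappa family Igkv3 held the most abundant segment of the whole set, and 4 of its members are shown over the same 120 bases of the variable exon, which hold the first complementarity-determining region. In Igkv3-10, Igkv3-12 and Igkv3-9 the capitals mark the bases that differ from Igkv3-2.
Igkv3-2: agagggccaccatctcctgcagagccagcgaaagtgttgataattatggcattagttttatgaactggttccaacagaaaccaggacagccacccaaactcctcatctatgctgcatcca
Igkv3-10: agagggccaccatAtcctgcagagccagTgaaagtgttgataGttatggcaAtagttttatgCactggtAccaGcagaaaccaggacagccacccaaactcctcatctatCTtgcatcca
Igkv3-12: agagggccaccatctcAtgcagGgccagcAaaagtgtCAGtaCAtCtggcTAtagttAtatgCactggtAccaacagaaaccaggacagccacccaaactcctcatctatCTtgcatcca
Igkv3-9: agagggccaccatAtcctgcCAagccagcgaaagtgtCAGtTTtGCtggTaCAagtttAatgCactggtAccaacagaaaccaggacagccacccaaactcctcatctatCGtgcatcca
These stretches were at chr6:70698818-70698937, chr6:70572981-70573100, chr6:70518600-70518719 and chr6:70588528-70588647, in the order shown and on the plus strand. Over their variable exons, the 4 segments were between 86.1% and 90.6% identical in pairs, so that a read over a shared stretch could be uncertain between them. Of all 82 members, 8 had a stretch of 150 bases in common with another immunoglobulin gene, and for 0 of these was it more than 50% of the stretches. The exons of 3 members overlapped those of another gene: Igkv2-137, Iglc2 and Iglc3.

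Immunoglobulin transcripts were present in all 6 libraries and far less abundant in AAV9-HSA-CAAHR muscles. The 82 members summed to 25.9, 24.5 and 17.9 CPM in AAV9-HSA-CAAHR replicates 31, 34 and 36, and to 189, 820 and 424 CPM in AAV9-HSA-GFP replicates 42, 43 and 46. The groups did not overlap, and the AAV9-HSA-GFP libraries were much further from each other than the AAV9-HSA-CAAHR libraries. For 39 of the 82 members every AAV9-HSA-CAAHR library was below every AAV9-HSA-GFP library, and for 0 members every AAV9-HSA-CAAHR library was above. Among all 18705 genes with at least 20 counts, these patterns were found in 14.6% and 13.5%, and among the 15847 genes that were tested the first was found in 14.9%. Without AAV9-HSA-GFP replicate 43, 40 members lay below in every library, where 19.3% of the 18705 genes did. In 38 members all 3 AAV9-HSA-CAAHR libraries had 0 counts. These reached the minimum of 20 through AAV9-HSA-GFP counts alone and could not lie above. The direction of these counts of members was thus partly set by how the members were chosen, and they are no result about the members.

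The filter on low counts left 12 of the 82 members in the test across all 15847 genes and removed 70. In edgeR's quasi-likelihood test, 7 members were lower at a Benjamini-Hochberg adjusted p under 0.05, where 4.57% of all tested genes were called lower. The 7 were Ighv1-80, Igkv4-55, Ighg2b, Iglc2, Ighm, Igkv8-24 and Igkc. No member was called higher, by edgeR or by DESeq2, where edgeR called 3.04% of all tested genes higher. At an unadjusted p under 0.05 there were 0 higher and 11 lower members, beside 11.3% and 12.6% of all tested genes. The median log2 fold change of the 12 was -5.93, or -5.17 with Igkv4-55 and Igkv8-24 set to the bound that their 0 counts allow, and that of all tested genes was 0.00863. Of the 12, 3 had at least 10 counts in every library and the others passed mainly through the AAV9-HSA-GFP libraries. The members were chosen on their totals, so these counts and the median describe the members that were tested and not the whole set.

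The calls depended on single libraries. Leaving out 1 library at a time gave between 3 calls (without AAV9-HSA-CAAHR replicate 31) and 19 calls (without AAV9-HSA-GFP replicate 42, when 27 members passed the filter). Leaving out AAV9-HSA-CAAHR replicate 36 gave 4 calls. With no filter on low counts, all 82 were tested and 36 were called lower, among them 5 of the 7. The test then took in all members with no AAV9-HSA-CAAHR count, so the 36 is no result about the members. Shares of all genes called in these fits are not given here.

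Ighm, the constant gene of IgM (chromosome 12, 113418558 to 113422730), was the most abundant member in every library. It was at 17.8, 15.6 and 7.82 CPM in AAV9-HSA-CAAHR replicates 31, 34 and 36 and at 121, 392 and 253 CPM in AAV9-HSA-GFP replicates 42, 43 and 46. The groups did not overlap, with a mean of 13.7 ± 5.22 CPM (SD, n = 3) against 255 ± 136 CPM. The log2 fold change was -4.22 ± 0.59 (SE) with an adjusted p of 0.0196 by edgeR. The adjusted p was over 0.05 in 4 of the 6 fits that left out a library, those without an AAV9-HSA-CAAHR library or AAV9-HSA-GFP replicate 46, with a highest value of 0.0681.

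The 4 Ighg genes encode the constant regions of the IgG subclasses, and they did not follow a common pattern. Ighg2c was at 6.88, 7.42 and 5.23 CPM in AAV9-HSA-CAAHR muscles and 15.2, 22.0 and 49.8 CPM in AAV9-HSA-GFP replicates 42, 43 and 46. These groups did not overlap, but the log2 fold change of -2.16 ± 0.49 had an adjusted p of 0.0650 by edgeR and did not pass. DESeq2 called it, at an adjusted p of 0.000937, and so did edgeR without robust estimation, at 0.0135.

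Ighg2b was at 0.0198, 0.0350 and 0.0820 CPM in AAV9-HSA-CAAHR muscles, or 1, 2 and 5 counts, and at 13.8, 3.87 and 2.87 CPM in AAV9-HSA-GFP replicates 42, 43 and 46. It was lower with a log2 fold change of -7.11 ± 1.03 and an adjusted p of 0.0159 by edgeR. The call was lost without any 1 of the AAV9-HSA-CAAHR libraries (adjusted p up to 0.0853) and with no filter (0.0504). Its highest value was in the AAV9-HSA-GFP library with the fewest immunoglobulin counts.

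Ighg1 was at 0.0395, 0.105 and 1.44 CPM in AAV9-HSA-CAAHR replicates 31, 34 and 36 and at 0.124, 51.2 and 23.1 CPM in AAV9-HSA-GFP replicates 42, 43 and 46. The groups overlapped, because AAV9-HSA-CAAHR replicate 36 with 88 counts was above AAV9-HSA-GFP replicate 42 with 6 counts. The log2 fold change of -5.48 ± 2.09 had an adjusted p of 0.209 by edgeR and of 0.0362 by DESeq2. Ighg3 had 0, 0 and 3 counts in AAV9-HSA-CAAHR muscles and 2, 17 and 1 counts in AAV9-HSA-GFP muscles, and was too low to be tested.

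Among the remaining heavy-chain constant genes, Ighd, which naive B cells express together with Ighm, had 1, 11 and 22 counts in AAV9-HSA-CAAHR muscles and 19, 18 and 21 counts in AAV9-HSA-GFP muscles. Its log2 fold change of -1.04 ± 0.63 did not pass (adjusted p = 0.359 by edgeR), with levels of 0.191 ± 0.171 CPM against 0.408 ± 0.0217 CPM. Igha, the constant gene of IgA, had 2, 11 and 0 counts against 9, 38 and 37, and the groups overlapped. Ighe, the constant gene of IgE, had 0 counts in every AAV9-HSA-CAAHR library and 4, 84 and 2 counts in AAV9-HSA-GFP replicates 42, 43 and 46. Against a floor of 3 counts over the group, Ighe was at least 35.4-fold higher in AAV9-HSA-GFP muscles, and 84 of its 90 counts came from replicate 43.

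**Figure D1:**
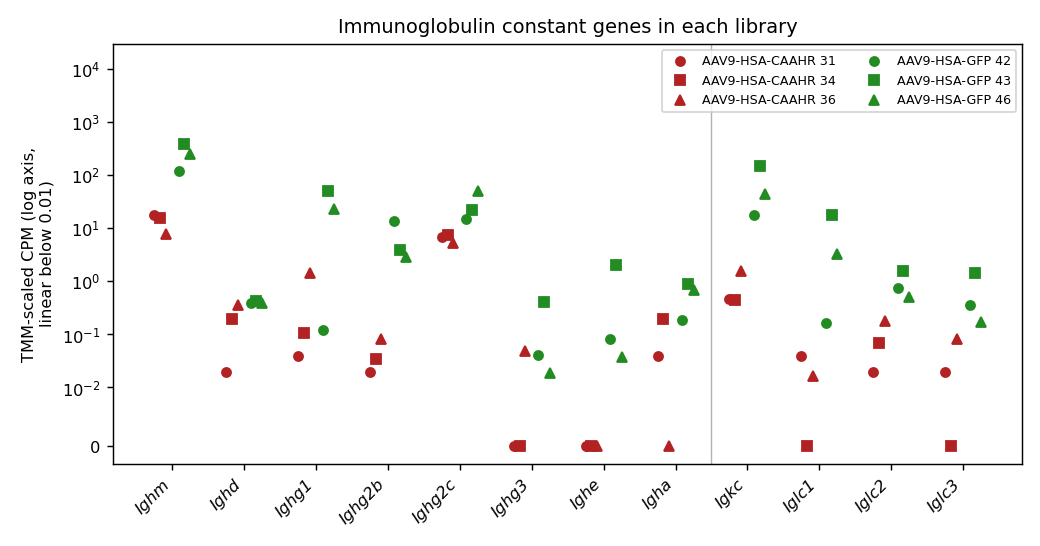
TMM-scaled CPM of the 8 heavy-chain (left of the grey line) and 4 light-chain constant genes, with 1 point per library, AAV9-HSA-CAAHR in red and AAV9-HSA-GFP in green, on a log axis that is linear below 0.01. The AAV9-HSA-CAAHR points of Ighm lie between 7.82 and 17.8 CPM and its AAV9-HSA-GFP points between 121 and 392 CPM, whereas the points of Ighg1 overlap.

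The light-chain constant genes were also lower in AAV9-HSA-CAAHR muscles. Igkc, the kappa constant gene (chromosome 6, 70726435 to 70726966), was at 0.475, 0.438 and 1.54 CPM in AAV9-HSA-CAAHR replicates 31, 34 and 36 and at 17.6, 147 and 44.9 CPM in AAV9-HSA-GFP replicates 42, 43 and 46. The groups did not overlap, and the log2 fold change was -6.38 ± 1.17 with an adjusted p of 0.0440 by edgeR. With no filter on counts the adjusted p was 0.0775, and it was over 0.05 in 5 of the 6 fits that left out a library, all but that without AAV9-HSA-GFP replicate 42, up to 0.141.

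Iglc2, a lambda constant gene, was at 0.0198, 0.0700 and 0.180 CPM against 0.767, 1.59 and 0.510 CPM, and was lower with a log2 fold change of -3.31 ± 0.66 and an adjusted p of 0.0190 by edgeR, or 0.0564 without AAV9-HSA-CAAHR replicate 31. It shares 94.1% of its sequence with Iglc3, which had 1, 0 and 5 counts against 17, 59 and 9, so the division of reads between the 2 genes is uncertain. Iglc1 had 2, 0 and 1 counts in AAV9-HSA-CAAHR muscles and 8, 740 and 172 counts in AAV9-HSA-GFP muscles. Its pooled ratio of AAV9-HSA-CAAHR to AAV9-HSA-GFP was 0.00276, with an exact 95% counting interval of 0.000568 to 0.00809 that covers counting error only. Of the AAV9-HSA-GFP counts 740 came from replicate 43, and without it the ratio was 0.01. Neither Iglc1 nor Iglc3 passed the filter for the test.

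Per kilobase of exon, which allows levels of different genes to be set side by side, Ighm was at 64.0, 208 and 134 CPM per kilobase in AAV9-HSA-GFP replicates 42, 43 and 46, and Igkc at 33.0, 277 and 84.4 CPM per kilobase. Igkc was thus above Ighm in replicate 43 and below it in the other AAV9-HSA-GFP libraries. In AAV9-HSA-CAAHR replicates 31, 34 and 36 Ighm was at 9.43, 8.25 and 4.15, Ighg2c at 5.19, 5.60 and 3.95, and Igkc at 0.892, 0.822 and 2.90 CPM per kilobase. Ighm and Ighg2c were above Igkc in each of these 3 libraries.

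The make-up of the heavy-chain counts was compared as shares within each library, which do not depend on the scaling between libraries. Ighm gave 71.7% (exact 95% binomial interval 69.2 to 74.2), 66.2% (63.6 to 68.7) and 52.2% (48.9 to 55.5) of heavy-chain constant counts in AAV9-HSA-CAAHR replicates 31, 34 and 36. It gave 80.2%, 82.9% and 76.7% in AAV9-HSA-GFP replicates 42, 43 and 46. The IgM share was thus lower in every AAV9-HSA-CAAHR library, with a mean of 63.4 ± 10.1% against 79.9 ± 3.14% (SD, n = 3). Shares of IgG, summed over the 4 Ighg genes, were 35.2 ± 9.08% against 19.6 ± 3.32%, and higher in every AAV9-HSA-CAAHR library. Both differences had p = 0.1 in a two-sided exact permutation test, the smallest value that 3 libraries against 3 can give, and p = 0.15 after adjustment over the 6 compositions tested. In level, summed IgG was 6.81 to 7.56 CPM in AAV9-HSA-CAAHR muscles and 29.1 to 77.4 CPM in AAV9-HSA-GFP muscles, so IgM and IgG were both below AAV9-HSA-GFP in every library.

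The IgG subclasses that made up these shares differed among the AAV9-HSA-GFP libraries, whereas in AAV9-HSA-CAAHR replicates 31 and 34 nearly all IgG counts were Ighg2c. Ighg2c gave 27.8%, 31.6% and 34.9% of heavy-chain counts in AAV9-HSA-CAAHR replicates 31, 34 and 36, and 10.1%, 4.65% and 15.1% in AAV9-HSA-GFP replicates 42, 43 and 46. Ighg2c counts per 100 Ighm counts, a measure chosen after seeing the data, were 38.7, 47.7 and 66.9 against 12.6, 5.60 and 19.7, and the groups did not overlap. Ighg1 gave 10.8% in AAV9-HSA-GFP replicate 43 and 7.02% in replicate 46 but 0.0826% in replicate 42, where Ighg2b gave 9.15%. In AAV9-HSA-CAAHR muscles Ighg1 gave 9.63% in replicate 36 and 0.160% and 0.447% in replicates 31 and 34. The IgA share was 0.326 ± 0.434% against 0.176 ± 0.0464% (exact permutation p = 0.9). With 0 of 914 heavy-chain counts, Igha in AAV9-HSA-CAAHR replicate 36 could have had a share of up to 0.328%.

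**Figure D2:**
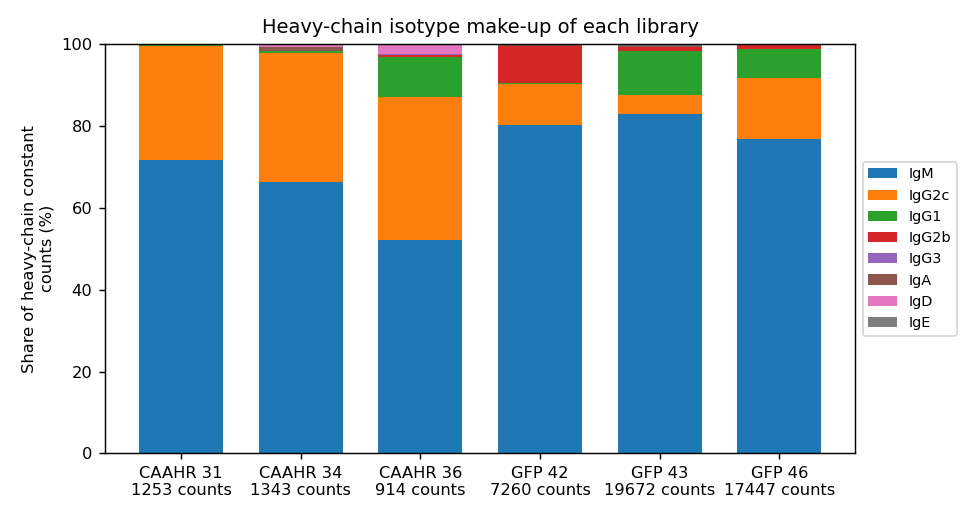
Share of each isotype in the heavy-chain constant counts of each library, in percent, with the number of counts under each bar. IgM lies between 52.2% and 71.7% in the 3 AAV9-HSA-CAAHR libraries and between 76.7% and 82.9% in the 3 AAV9-HSA-GFP libraries, IgG2b is 9.15% of AAV9-HSA-GFP replicate 42, and IgG1 is largest in AAV9-HSA-GFP replicate 43.

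In mice most antibodies carry kappa light chains, and kappa counts outnumbered lambda counts in every library. The lambda share of light-chain constant counts was 14.3%, 13.8% and 15.3% in AAV9-HSA-CAAHR replicates 31, 34 and 36 and 6.82%, 12.4% and 8.05% in AAV9-HSA-GFP replicates 42, 43 and 46. The AAV9-HSA-CAAHR shares rested on 28, 29 and 111 counts, and the exact binomial interval of replicate 31 ran from 4.03 to 32.7, which contains all 3 AAV9-HSA-GFP values. The groups did not overlap, and the difference of 5.38 percentage points had an exact permutation p of 0.1. Per kilobase of exon they did overlap, with 12.2% in AAV9-HSA-CAAHR replicate 34 and 14.0% in AAV9-HSA-GFP replicate 43 (exact permutation p = 0.2). Within lambda, Iglv1 and Iglc1 followed each other. Iglv1 had 7, 856 and 222 counts and Iglc1 had 8, 740 and 172 counts in AAV9-HSA-GFP replicates 42, 43 and 46. Iglc1 thus gave 740 of 865 lambda constant counts in replicate 43 and 172 of 208 in replicate 46. In AAV9-HSA-GFP replicate 42, Iglc2 with 37 counts and Iglc3 with 17 counts were above Iglc1 with 8.

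Light-chain RNA was low relative to heavy-chain RNA in AAV9-HSA-CAAHR muscles. There were 0.0223, 0.0216 and 0.121 light-chain constant counts per heavy-chain constant count in AAV9-HSA-CAAHR replicates 31, 34 and 36, and 0.125, 0.355 and 0.148 in AAV9-HSA-GFP replicates 42, 43 and 46. AAV9-HSA-CAAHR replicate 36 was next to AAV9-HSA-GFP replicate 42, and the other AAV9-HSA-CAAHR libraries stood far below. On the log2 scale the mean was -4.69 ± 1.42 against -2.42 ± 0.807, a difference of -2.27 with an exact permutation p of 0.1, adjusted to 0.15.

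Heavy-chain variable segments were still scarcer relative to the heavy-chain constant genes. The member Ighv segments had 5, 11 and 0 counts in AAV9-HSA-CAAHR replicates 31, 34 and 36, beside 1253, 1343 and 914 heavy-chain constant counts. In AAV9-HSA-GFP replicates 42, 43 and 46 they had 353, 1687 and 557 counts, beside 7260, 19672 and 17447. In a comparison chosen after seeing the data, this was 0.399, 0.819 and 0 Ighv counts per 100 heavy-chain constant counts in AAV9-HSA-CAAHR muscles and 4.86, 8.58 and 3.19 in AAV9-HSA-GFP muscles. The groups did not overlap, with a mean of 0.406 ± 0.410 against 5.54 ± 2.76 and an exact permutation p of 0.1. Per kilobase of exon the values were 1.86, 3.81 and 0 against 25.2, 45.6 and 15.9. The members reached their minimum mainly through AAV9-HSA-GFP counts, and over all Ighv rows with no minimum there were 6, 11 and 7 counts in AAV9-HSA-CAAHR muscles and 401, 1863 and 615 in AAV9-HSA-GFP muscles. These were 0.479, 0.819 and 0.766 per 100 heavy-chain constant counts against 5.52, 9.47 and 3.52, and again did not overlap.

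For kappa the same ratio overlapped between the groups. Igkv members had 83.3, 64.0 and 67.0 counts per 100 Igkc counts in AAV9-HSA-CAAHR replicates 31, 34 and 36, and 72.5, 80.1 and 69.6 in AAV9-HSA-GFP replicates 42, 43 and 46. The difference of the means was -2.61 (exact permutation p = 0.7), and the AAV9-HSA-CAAHR values rested on 20, 16 and 63 Igkv counts. In AAV9-HSA-CAAHR muscles, variable segments were thus counted beside the few Igkc reads, while the larger number of Ighm and Ighg2c reads had under 1 Ighv count per 100 beside them. Whether those heavy-chain reads came from rearranged transcripts was not tested, since the table does not say where in a gene a read fell.

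**Figure D3:**
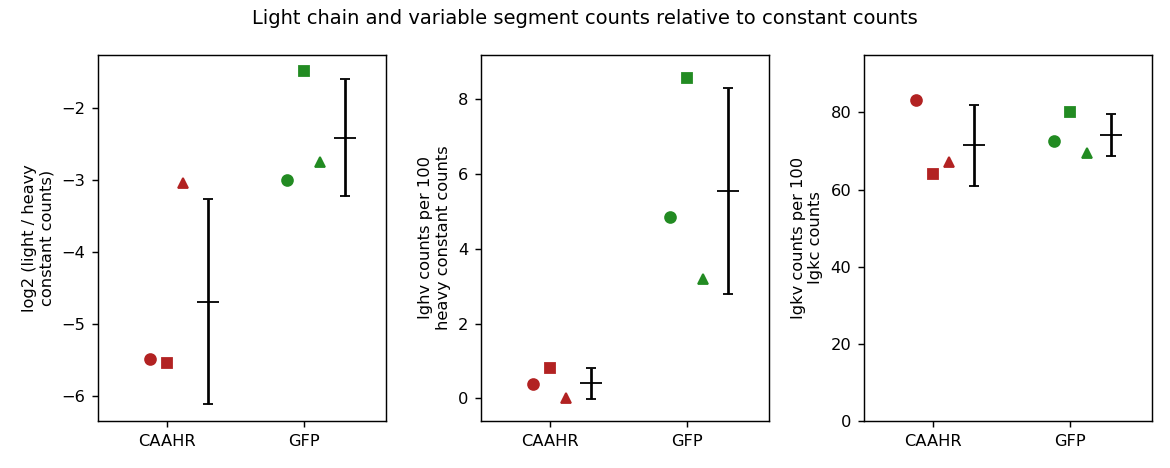
From left to right, the log2 ratio of light-chain to heavy-chain constant counts, Ighv counts per 100 heavy-chain constant counts, and Igkv counts per 100 Igkc counts, with 1 point per library and the mean ± SD of each group beside the points. The first 2 ratios do not overlap between groups, whereas the third overlaps, with means of 71.5 and 74.1.

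Of the 70 variable segments, 5 passed the filter for the test and 3 of these were lower: Ighv1-80, Igkv4-55 and Igkv8-24. These were segments with counts in every AAV9-HSA-GFP library and at most 1 in any AAV9-HSA-CAAHR library. They passed the filter through the AAV9-HSA-GFP libraries alone, so the direction of their calls was largely set by it and their number is no result about the segments. Ighv1-80 had 1, 0 and 0 counts in AAV9-HSA-CAAHR muscles and 47, 56 and 78 counts in AAV9-HSA-GFP muscles, and its adjusted p by edgeR was 0.000372. The pooled ratio was 0.00468, with an exact 95% counting interval of 0.000118 to 0.0264. Igkv4-55 had 0 counts in every AAV9-HSA-CAAHR library and 55, 102 and 99 counts in AAV9-HSA-GFP muscles, at least 101-fold higher against the floor, with an adjusted p of 0.000870 by edgeR. Igkv8-24 had 0 counts against 12, 46 and 16, at least 29.1-fold higher, with an adjusted p of 0.0247 by edgeR. This call was lost without AAV9-HSA-CAAHR replicate 31 (0.0547) or 36 (0.0648) or AAV9-HSA-GFP replicate 46 (0.0623).

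Igkv3-2 was the most abundant segment of all loci, with 3, 8 and 1 counts in AAV9-HSA-CAAHR muscles and 80, 2154 and 424 counts in AAV9-HSA-GFP replicates 42, 43 and 46. The groups did not overlap but the AAV9-HSA-GFP libraries were widely spread, and the log2 fold change of -8.11 ± 2.06 had an adjusted p of 0.0949 by edgeR. Without AAV9-HSA-GFP replicate 43, the adjusted p by edgeR was 0.0400. With all libraries it was 0.0151 by edgeR without robust estimation and 8.46e-07 by DESeq2. Igkv3-12 had 1, 2 and 22 counts against 34, 288 and 224, with an adjusted p of 0.0871 by edgeR. For Igkv3-12 it was 0.0223 by edgeR without robust estimation and 0.00575 by DESeq2. Igkv3-10 had 4, 0 and 0 counts against 9, 627 and 51.

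Many abundant segments came from a single AAV9-HSA-GFP library. Ighv8-12 had 223 counts in AAV9-HSA-GFP replicate 42 and 0 in the other 5 libraries. Igkv3-9 had 316 counts in AAV9-HSA-GFP replicate 46 and 0 in the other 5. Igkv1-135 had 276 of its 277 counts in AAV9-HSA-GFP replicate 43. Igkv13-84 had 137 counts in AAV9-HSA-GFP replicate 42, 1 in replicate 46 and 1 in AAV9-HSA-CAAHR replicate 31. Ighv1-42 had 227 of its 230 counts in AAV9-HSA-GFP replicate 43. Segments that had at least 20 counts in 1 AAV9-HSA-GFP library and at most 3 in the other two together were 1 Ighv and 3 Igkv in replicate 42, 9 Ighv and 12 Igkv in replicate 43, and 1 Ighv and 3 Igkv in replicate 46. They held 63.2% of the Ighv and 39.7% of the Igkv counts of replicate 42, 37.8% and 21.6% of those of replicate 43, and 16.5% and 29.4% of those of replicate 46. Replicate 43 had the most counts at both loci, so more of its segments could reach a fixed number of counts.

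**Figure D4:**
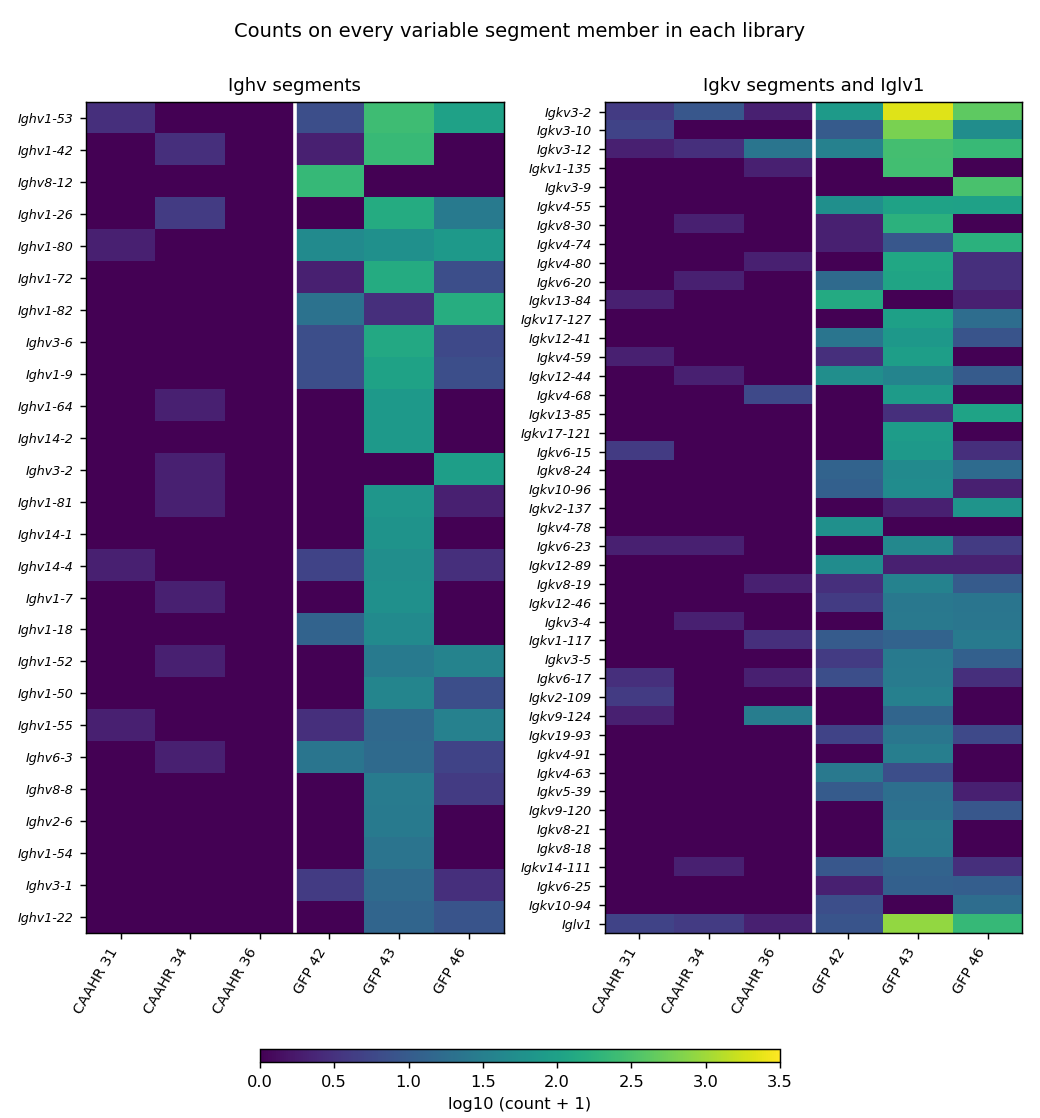
Counts on every variable segment member (rows, ordered within each locus by mean CPM over all libraries) in each library (columns), as log10 (count + 1). The 3 AAV9-HSA-CAAHR columns hold at most 29 counts in any cell (Igkv9-124 in replicate 36), and cells with 100 or more counts are found in the AAV9-HSA-GFP columns, most of them in replicate 43.

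The leading segments accordingly differed between the AAV9-HSA-GFP muscles. Among Ighv segments, Ighv8-12 held 63.2% (exact 95% binomial interval 57.9 to 68.2) of the counts of replicate 42, Ighv1-53 held 15.2% (13.5 to 17.0) of those of replicate 43 and Ighv1-82 held 26.8% (23.1 to 30.6) of those of replicate 46. Among Igkv segments, Igkv13-84 led replicate 42 with 22.3% (19.1 to 25.8), and Igkv3-2 led replicates 43 and 46 with 43.9% and 25.6%. Of the 10 most abundant segments of each library, pairs of AAV9-HSA-GFP libraries shared 3 or 4 of the Ighv and 3 or 4 of the Igkv segments. In all 3 AAV9-HSA-GFP libraries, 10 of the 26 Ighv and 20 of the 43 Igkv members had at least 1 count. Igkv3-2, Igkv3-12 and Igkv4-55 were among the 10 most abundant kappa segments of every AAV9-HSA-GFP library.

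The Ighv segments of AAV9-HSA-GFP replicate 42 were concentrated on few segments and those of replicate 43 were spread over many. The effective number of segments, the inverse Simpson index, which is the number of equally used segments that would give the same chance of drawing a segment again, was 2.36, 13.02 and 6.23 for Ighv in AAV9-HSA-GFP replicates 42, 43 and 46. Thinned to 353 counts, the libraries would be expected to show 13, 23.2 and 16.3 Ighv members, which kept the same order. For Igkv the effective numbers were 9.60, 4.52 and 7.04, an order opposite to that of Ighv. The number of Igkv members expected in 614 counts was 26.0, 34.4 and 26.1, so by that measure replicate 43 was highest for both loci. Replicate 43, in which Igkv3-2 alone gave 43.9% of kappa counts, had the lowest kappa number. Members were chosen on totals in which replicate 43 weighed most.

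**Figure D5:**
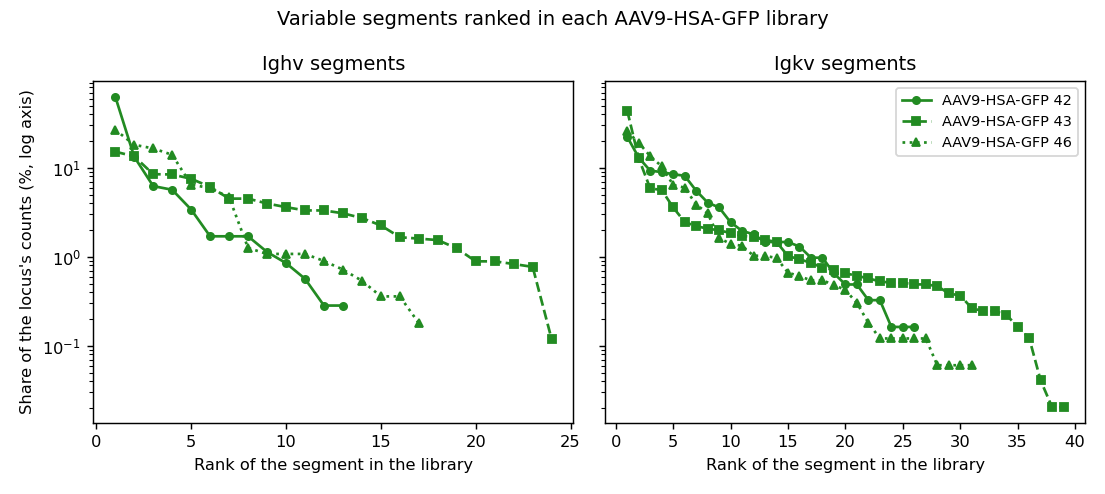
Share of the locus's counts held by each Ighv (left) and Igkv (right) member, in percent on a log axis, against its rank within each AAV9-HSA-GFP library. For Ighv, replicate 42 falls steeply from 63.2% over 13 members, while replicate 43 starts at 15.2% and extends over 24 members.

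The families of the segments differed between these libraries as well. The Ighv1 family, the largest in the mouse, gave 26.9% of Ighv counts in AAV9-HSA-GFP replicate 42, 76.3% in replicate 43 and 80.6% in replicate 46, and the Ighv8 family gave 63.2%, 1.66% and 0.539%. The Igkv3 family gave 20.5%, 63.6% and 63.4% of Igkv counts in these libraries, and the Igkv12 and Igkv13 families 20.7% and 22.3% in replicate 42. In AAV9-HSA-CAAHR muscles the Igkv3 family gave 40.0%, 68.8% and 36.5%, over few counts.

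Ighv1-26 had 0, 3 and 0 counts in AAV9-HSA-CAAHR muscles and 0, 143 and 26 in AAV9-HSA-GFP replicates 42, 43 and 46. The few variable segment counts of AAV9-HSA-CAAHR muscles were also unevenly spread. In AAV9-HSA-CAAHR replicate 36, Igkv9-124 had 29 of 63 Igkv counts (exact 95% binomial interval 33.4% to 59.1%) and Igkv3-12 had 22. Igkv9-124 had 1, 0 and 29 counts in AAV9-HSA-CAAHR replicates 31, 34 and 36 and 0, 13 and 0 counts in AAV9-HSA-GFP replicates 42, 43 and 46, and it was the only member with a higher mean in AAV9-HSA-CAAHR muscles. It was not tested, and its higher mean came from 1 library, which was also the AAV9-HSA-CAAHR library with the most Ighg1 and Igkc counts. The leading kappa segments of AAV9-HSA-CAAHR replicates 31 and 34 were Igkv3-10 with 4 of 20 counts and Igkv3-2 with 8 of 16, and their leading heavy-chain segments were Ighv1-53 with 2 of 5 counts and Ighv1-26 with 3 of 11. Effective numbers of Igkv segments were 11.9, 4.14 and 3.01 in AAV9-HSA-CAAHR muscles, 6.34 ± 4.82 against 7.05 ± 2.54 in AAV9-HSA-GFP muscles (exact permutation p = 0.8). As the exponential of the Shannon entropy, the difference was -5.36 with an exact permutation p of 0.1, the smallest value possible, and no overlap between the groups. That measure cannot exceed the number of members seen, which was 10, 8 and 9 in AAV9-HSA-CAAHR muscles and 26, 39 and 31 in AAV9-HSA-GFP muscles. Thinned to 16 counts, the libraries would be expected to show 8.96, 8.0 and 4.5 against 8.92, 7.63 and 7.63 Igkv members. These overlapped, so the separation cannot be told apart from the difference in counts. The same test could not be made for Ighv, since AAV9-HSA-CAAHR replicate 36 had no count on any member.

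Genes of the cells that make antibodies were examined beside the immunoglobulin genes, and the lists were set with earlier results of these data known. Each count below stands beside 4.57% of all tested genes called lower and 3.04% called higher by edgeR, 7.04% called lower by DESeq2, and 23.9% at an unadjusted p under 0.05. Pou2af1, Slamf7, Il6, Cd2, Cd8b1 and Lck had at most 8 counts in any AAV9-HSA-CAAHR library. They passed the filter on low counts through the AAV9-HSA-GFP libraries, so the direction of their calls was largely set by it. Of 18 plasma cell genes 17 were tested, 4 were lower and 0 higher, with a median log2 fold change of -0.80. Pou2af1, a transcriptional coactivator of immunoglobulin genes, was at 0.0593, 0.0525 and 0.0984 CPM in AAV9-HSA-CAAHR muscles and 1.20, 3.56 and 2.64 CPM in AAV9-HSA-GFP muscles, a log2 fold change of -5.07 ± 0.51 with an adjusted p of 0.000870 by edgeR. Mzb1, a chaperone of antibody assembly, was lower with a log2 fold change of -1.99 ± 0.38 and an adjusted p of 0.0155 by edgeR, and Tnfrsf13b and Slamf7, surface receptors of antibody-secreting and other lymphoid cells, were lower as well. The call of Pou2af1 held without each library in turn, and those of Mzb1, Tnfrsf13b and Slamf7 were lost without AAV9-HSA-CAAHR replicate 31 or 36, the last 2 also without AAV9-HSA-GFP replicate 43 or 46 (adjusted p up to 0.109). Jchain, which joins IgM and IgA into polymers, was at 0.218, 0.385 and 0.640 CPM against 3.61, 31.1 and 8.10 CPM. These groups did not overlap and AAV9-HSA-GFP replicate 43 was far above the others, and the adjusted p was 0.0638 by edgeR. Xbp1 and Txndc5, genes of the secretory pathway that muscle also expresses, were the most abundant of the list and did not pass (adjusted p = 0.759 and 0.105 by edgeR).

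Of 20 B cell genes 13 were tested, 4 were lower and 0 higher, with a median log2 fold change of -1.73. The signalling subunits of the B cell receptor, Cd79a and Cd79b, were at 0.158 to 0.213 CPM and 0.0989 to 0.245 CPM in AAV9-HSA-CAAHR muscles and at 0.373 to 1.56 CPM and 0.456 to 1.32 CPM in AAV9-HSA-GFP muscles. Their log2 fold changes of -2.17 ± 0.55 and -2.29 ± 0.54 had adjusted p-values of 0.0460 and 0.0341 by edgeR, and the calls of Cd79a and Cd79b were lost in 5 and 4 of the 6 fits that left out a library, those without AAV9-HSA-CAAHR replicate 31 or 36 or AAV9-HSA-GFP replicate 43 or 46 and, for Cd79a, AAV9-HSA-CAAHR replicate 34. Blnk, an adaptor of that receptor, and Cd24a, which other cells also express, were lower in each of those fits. The surface marker Ms4a1 was not called (adjusted p = 0.0858 by edgeR), and Ebf1, a B cell factor also found in stromal cells, was not either (0.335). Apart from Cd24a and Ebf1, the tested B cell genes were at low levels in both groups.

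Rag1 and Rag2, which join the segments in developing lymphocytes, had 0 counts in every library, as did Vpreb2. Ung, a repair enzyme used in class switching but expressed in many cells, was lower (log2 fold change -0.59 ± 0.14, adjusted p = 0.0327 by edgeR), a call lost with library size only (0.0545) and without AAV9-HSA-CAAHR replicate 31 or 36 or AAV9-HSA-GFP replicate 43 or 46 (up to 0.114), and Apobec1 was not called (0.0612). Of 13 genes for B cell survival and attraction 8 were tested, and 1 was lower: Il6, a cytokine that also promotes plasma cell survival, at 0.0593 to 0.131 CPM against 0.870 to 1.38 CPM, with a log2 fold change of -3.45 ± 0.40 and an adjusted p of 0.00134 by edgeR. The chemokine genes Cxcl12 and Cxcl13 did not pass (0.642 and 0.0554). Of 11 Fc receptor and transport genes 5 were tested and 0 were called by edgeR, with 4 at an unadjusted p under 0.05 and 4 called lower by DESeq2. Fcgrt, the receptor that recycles IgG, was at 23.4 to 27.8 CPM against 29.3 to 37.6 CPM, and Fcgr2b, an inhibitory IgG receptor, at 0.945 to 1.44 CPM against 1.28 to 5.14 CPM.

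Some markers of other cells were also lower in AAV9-HSA-CAAHR muscles. Of 6 tested T and NK cell genes 3 were lower (Cd2, Cd8b1 and Lck), and the sum of the 16 listed genes was 2.49 to 4.03 CPM in AAV9-HSA-CAAHR muscles and 4.97 to 16.4 CPM in AAV9-HSA-GFP muscles. These 3 genes had at most 5 counts in any AAV9-HSA-CAAHR library, so their number is no result about the list. Of 6 tested neutrophil genes 5 were lower (S100a8, Retnlg, Mmp9, S100a9 and Csf3r), with sums of 2.97 to 3.84 CPM against 8.77 to 19.9 CPM, and Elane, which neutrophil precursors express, was at 0 in every library. Of 10 tested macrophage genes 0 were called by edgeR, 8 had an unadjusted p under 0.05 and 7 were called lower by DESeq2, and the sums of all 12 listed genes of 27.7 to 46.9 CPM and 55.0 to 120 CPM did not overlap. The sums of the red cell genes overlapped between groups, at 258 to 349 CPM against 209 to 290 CPM, and of 7 tested 0 were called by edgeR or DESeq2, with 2 at an unadjusted p under 0.05, a share near that of all tested genes. AAV9-HSA-GFP replicate 43 had the highest sum of plasma cell, B cell, T and NK cell and macrophage genes, as it had of immunoglobulin counts, while the neutrophil sum was highest in replicate 46. In replicate 43, Cd24a alone gave 365 of the 393 CPM of the B cell sum. Xbp1 and Txndc5 gave 65.1 and 41.8 of the 216 CPM of the plasma cell sum. Other cells also express these genes, so the B cell and plasma cell sums do not measure those cells. The calls of Cd2, S100a8, Retnlg and Mmp9 held without each library in turn, while those of Cd8b1, Lck, S100a9 and Csf3r were lost without AAV9-HSA-CAAHR replicate 36, the first 3 of these also without replicate 31, and Cd8b1, Lck and Csf3r without AAV9-HSA-GFP replicate 43 and Csf3r without replicate 46. The part of these cells in the immunoglobulin differences was not tested.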

How the data were processed

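Poly(A)-selected RNA was sequenced as paired ends by the authors, who trimmed reads with Trimmomatic 0.36, aligned them to GRCm38 with STAR 2.5.2b and counted uniquely assigned exonic reads per gene with featureCounts. The deposited values are whole-number counts, not normalized. The strand setting is not given in the sources used here, so overlapping genes could share reads. Reads over rearranged or mutated segments may be assigned less often than those over constant genes.

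Groups and replicate numbers were read from the sample titles, and 0 columns of the table were left unused. Nothing says which libraries came from separate cages or extractions, and p-values measure the spread between these samples. The members and gene lists were chosen with earlier results of these data known. Where a symbol stood on 2 rows of the table, the row with more counts was used. Positions, exon lengths and sequences came from GENCODE release 21.

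The fit used edgeR 4.0.16 under R 4.3.3. Genes passing filterByExpr (minimum count 10) were given TMM factors (trimmed mean of M values) and compared by robust quasi-likelihood, with Benjamini-Hochberg adjustment over all 15847 tested genes at 0.05. Standard errors were derived from the F statistic. Shares and ratios were computed from raw counts per library and compared by two-sided exact permutation tests (scipy 1.17.1). Of 7 such planned tests 6 could be made and were adjusted together, and 3 added after seeing the data were adjusted among themselves. Intervals (95%, exact) and floors of 3 counts over the group cover counting error only. Floors for a share used 3 counts per library. Alternatives were DESeq2 1.42.0, edgeR without robust estimation, other scalings and filters, and leaving out each library. The test scripts were first checked on simulated data, in which 93.3% of 4-fold and 64.3% of 2-fold changes were called. Unchanged genes made up 12.0% of the calls there, more than the threshold of 0.05 aims at.

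Named were all constant members, the 5 segments of highest mean CPM per locus, the leading segment of each library, members nearest the count minimum, tested members with a higher level (there were none), and in each list the genes called (up to 6) and the 2 of highest mean CPM. Other tested members, Igkv9-124, and the list genes Jchain, Ms4a1, Rag1, Rag2, Vpreb2 and Elane were named after their values were seen.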

Additional observations from a re-analysis of the deposited data

How the results depend on the processing

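The count of 7 immunoglobulin members called lower was the same with the 3 other scalings, DESeq2 size factors, upper quartile and library size only. With no filter beyond a nonzero total it was 36, and it was 2 with at least 10 counts in every library (when 3 members were tested). It was 11 with DESeq2 and 10 with edgeR without robust estimation. Leaving out a library gave 3 to 19, and the count of members called higher was 0 in every fit. The plasma cell count of 4 became 7 without the filter and 1 with at least 10 counts in every library, and 1 to 5 when a library was left out. The B cell count of 4 became 11, 2 and 7 (DESeq2), and 2 to 4 when a library was left out. The cause was not tested beyond the number of genes and samples that each setting leaves. Except for DESeq2, shares of all genes called in these settings are not given here, so the counts show only how calls depend on processing. No log2 fold change of a tested immunoglobulin member or of a called list gene changed sign under any alternative that tested it. For the shares, the difference between groups kept its direction for IgM, IgG, lambda and light over heavy constant counts under every alternative run. The difference in the IgA share ran from -0.0966 to 0.313 percentage points when a library was left out and was negative only without AAV9-HSA-CAAHR replicate 34. The difference in the effective number of Igkv segments, -0.711, ran from -3.48 to 0.953 when a library was left out, was 0.264 over all Igkv segments with any count and -5.36 as the exponential of the Shannon entropy. The last value is limited by the few Igkv counts of AAV9-HSA-CAAHR muscles. The difference in Igkv counts per 100 Igkc counts, chosen after seeing the data, ran from -8.55 to 1.11 when a library was left out. The alternatives for the effective number of Ighv segments were not run, since AAV9-HSA-CAAHR replicate 36 had no count. No paired analysis was possible because no replicate number occurs in both groups. The depth limits most variable segments of AAV9-HSA-CAAHR muscles, which had 0 to 29 counts each.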

Other observations

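Rows for J segments, which lie between the variable segments and the constant genes, held few counts of their own. The Igkj rows summed to 0, 0 and 1 counts in AAV9-HSA-CAAHR replicates 31, 34 and 36 and to 1, 44 and 6 counts in AAV9-HSA-GFP replicates 42, 43 and 46. The Ighj rows summed to 0, 0 and 1 counts against 5, 4 and 3, and the Iglj rows to 0, 0 and 0 against 0, 6 and 0. Ighv3-2, which GENCODE annotates as a pseudogene and which was named after its values were seen, had 92 counts in AAV9-HSA-GFP replicate 46, 1 in AAV9-HSA-CAAHR replicate 34 and 0 in the other 4 libraries, and was the third most abundant Ighv segment of replicate 46.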
